A study of Mus musculus with 22 samples.

Results

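The Rap family of small GTPases and a set of their regulators were examined in the lumbar spinal cord of mice with knee joint pain, using RNA sequencing. The set was defined by gene symbol and held 10 genes of the 17306 in the expression table, namely the 5 GTPases Rap1a, Rap1b, Rap2a, Rap2b and Rap2c, the 3 exchange factors Rapgef1, Rapgef2 and Rapgef4, and the 2 GTPase-activating proteins Rap1gap and Sipa1l1. All 10 genes passed the filter on low values and were among the 16765 genes tested. Rap1a was already known to pass the late comparison when the set was drawn up, so that its late values, and the late minus early values built on them, are given as a description. The other members were also chosen with earlier results of these data known.

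Spinal cord was taken from 22 C57BL6J wildtype mice aged 12 to 14 weeks. All of them received 1 mg of monoiodoacetate (MIA), which blocks glycolysis in cartilage cells and causes lasting pain when injected into the knee, and no group was without MIA. SAFit2, which selectively blocks the stress-related co-chaperone FKBP51, was given at 100 mg/kg in a vesicular phospholipid gel that forms a depot under the skin, and Vehicle mice received the gel alone. Gel was injected on days -3 and 4 relative to MIA in the early groups (5 Early SAFit2 and 6 Early Vehicle mice) and on days 20 and 27 in the late groups (5 Late SAFit2 and 6 Late Vehicle mice), with tissue collected on day 30. At collection the early groups were therefore further from their last injection than the late groups. The study's methods name mice of both sexes, and a supplementary figure legend describes the early and late treated mice as male. The tissue is described as the ipsilateral quadrant of lumbar segments, without sorting of cells. Fewer cells of a type and less RNA per cell can therefore not be told apart. Sample titles of the 5 Early SAFit2 mice name SAFit1, whereas their treatment labels name SAFit2, and the treatment labels were followed.

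Rap proteins cycle between an inactive GDP-bound and an active GTP-bound state. Exchange factors (GEFs) load them with GTP and GTPase-activating proteins (GAPs) return them to the inactive state, so that transcript levels of GTPase, GEF and GAP are separate inputs to the same switch. Rap1 is known for integrin activation, cell junctions and relaying cyclic AMP signals, and Rap2 for cytoskeletal signalling through TNIK-type kinases and for effects on synapses. In sensory pathways, Epac proteins such as Rapgef4 link cyclic AMP to Rap1.

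The 5 GTPases are close relatives, so their coding sequences are shown first to make clear that reads could be assigned to a single gene. Below are the first 90 coding bases of the longest GENCODE M21 transcript of each gene (GRCm38), in which capitals mark bases that differ from Rap1a.
Rap1a: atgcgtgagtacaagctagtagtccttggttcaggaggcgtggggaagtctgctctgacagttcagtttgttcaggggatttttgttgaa
Rap1b: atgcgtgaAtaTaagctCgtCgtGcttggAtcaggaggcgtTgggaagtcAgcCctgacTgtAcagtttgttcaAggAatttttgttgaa
Rap2a: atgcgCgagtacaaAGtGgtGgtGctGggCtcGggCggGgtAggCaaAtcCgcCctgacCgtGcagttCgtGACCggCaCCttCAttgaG
Rap2b: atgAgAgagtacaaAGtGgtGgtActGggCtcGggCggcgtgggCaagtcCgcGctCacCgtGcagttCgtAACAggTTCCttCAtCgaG
Rap2c: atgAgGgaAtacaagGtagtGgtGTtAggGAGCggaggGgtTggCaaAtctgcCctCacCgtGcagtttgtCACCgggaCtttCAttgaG
Within these 90 bases Rap1b differed from Rap1a at 13 positions, Rap2a at 29, Rap2b at 30 and Rap2c at 28. Over the whole coding sequence of 552 bases Rap1a and Rap1b were identical at 451 positions (81.7%), and the longest identical run was 20 bases. Rap2a and Rap2b shared 82.9% of 549 coding bases with a longest identical run of 44 bases. No stretch of 75 bases was shared between any of the 5 GTPase transcripts.

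Other genes did share sequence with some members. Of the 75-base stretches of the Rap2b transcript, 56.8% also occurred on the opposite strand in B430305J03Rik or Gm37696, which overlap it, and Rap2b is therefore reported as uncertain. Shares in the remaining members were 5.27% for Rap1a (with Gm9392), 3.29% for Rapgef1 (with Gm9823), 2.24% for Rapgef4 (with Rapgef4os2) and 0.17% for Rap2a (with Dlst). Rap1b, Rap2c, Rapgef2, Rap1gap and Sipa1l1 shared none. The library kit marks strand, but the strand setting used for counting is not given in the sources used here.

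The genes lie on 7 chromosomes (GRCm38). Rap1a is at chr3:105727267-105801336 on the minus strand, Rap1b at chr10:117813871-117846035 (minus), Rap2a at chr14:120478444-120507194 (plus), Rap2b at chr3:61361638-61368430 (plus) and Rap2c at chrX:51003912-51018018 (minus). Rapgef1 is at chr2:29619720-29740978 (plus), Rapgef2 at chr3:79062516-79286517 (minus), Rapgef4 at chr2:71981240-72257474 (plus), Rap1gap at chr4:137664726-137729861 (plus) and Sipa1l1 at chr12:82169320-82451786 (plus). All are annotated as protein coding, and their longest transcripts have between 1 exon (Rap2b) and 31 exons (Rapgef4). GC content of those transcripts ranged widely, from 36.5% in Rap2c, 38.8% in Rap1a and 39.9% in Rap1b to 56.2% in Rapgef1 and 59.3% in Rap1gap, with the other 5 genes between 45.9% and 52.6%. Among all genes tested the median GC content was 49.7%.

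Levels were read as log2 CPM, the logarithm of read counts scaled to the size of each library, and for comparison between genes as log2 CPM per kilobase of the longest transcript. On the per-kilobase scale Rap1a ranked first with a mean of 5.34 over 22 mice, followed by Rapgef4 (5.14) and Rap1gap (4.84). Rap2a (3.91), Rap2c (3.70), Sipa1l1 (3.60), Rapgef1 (3.44) and Rapgef2 (3.40) formed a middle group, and Rap1b (2.77) and Rap2b (1.65) were lowest. Neighbours in that order were mostly close to each other. Rap1a exceeded Rapgef4 in 11 of 22 mice with a mean difference of 0.21 ± 0.49 (SD) on the log2 per-kilobase scale, and Rap2c exceeded Sipa1l1 in 10 of 22 mice. Differences larger than their SD were found between Rap1gap and Rap2a (0.93 ± 0.55, 21 of 22 mice), Rapgef2 and Rap1b (0.64 ± 0.18, 22 of 22) and Rap1b and Rap2b (1.12 ± 0.31, 22 of 22). The level of Rap2b, and with it the last of these gaps, is uncertain, as Rap2b shares sequence with overlapping genes. Its RefSeq start also lies inside the GENCODE transcript whose length was used. Of the Rap1 paralogs, Rap1a was thus the more abundant transcript in every mouse, as the log2 ratio of Rap1a to Rap1b per kilobase lay between 1.85 and 3.42. Reads per member and library ranged from 133 in the lowest library of Rap2b to 4875 in the highest of Rapgef4.

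**Figure D1:**
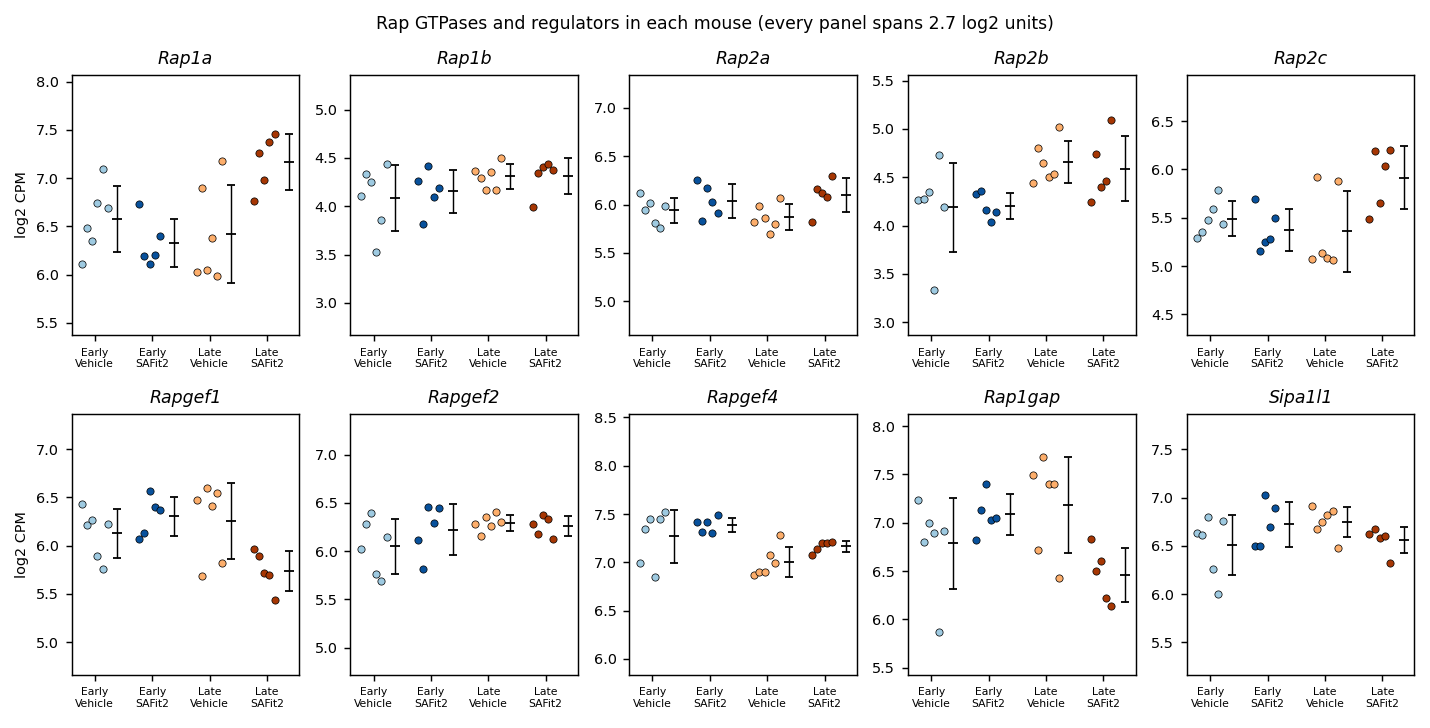
Level of each of the 10 genes in each mouse (points, log2 CPM on the vertical axis) by group, with mean ± SD as black bars beside the points; every panel spans the same 2.7 log2 units. In Late Vehicle, replicates 2 and 6 lie with the Late SAFit2 mice for Rap1a, Rap2c, Rapgef1 and Rap1gap, while the levels of Rap1b in the late groups overlap.

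The late comparison asked how these genes differed when SAFit2 was given after pain was established. Late SAFit2 mice had more Rap1a (1.68-fold) and Rap2c (1.47-fold) transcript than Late Vehicle mice, and less Rapgef1 (0.70-fold) and Rap1gap (0.60-fold). The other 6 genes did not pass the rule (limma, Benjamini-Hochberg adjusted p under 0.05 over all genes tested and at least 1.2-fold). Besides Rap1a, 3 members were therefore called, 1 higher and 2 lower. Among all genes tested the same rule called 12.1%, with 5.33% higher and 6.72% lower, so that a late call was common in these data. Under median centring the split of all late calls was 1139 higher and 924 lower, against 894 higher and 1127 lower in the values as deposited, and the direction of the called members did not turn. The median log2 fold change of the 10 genes was -0.01, that of all genes -0.05.

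The calls lay close to the threshold. With limma voom on the worked-back reads, Rap1a and Rap1gap passed the rule, and Rap2c (adjusted p = 0.051) and Rapgef1 (adjusted p = 0.055) did not. With only the 2 late groups in the fit no member and no gene passed (4 members and 5245 genes had an unadjusted limma p under 0.05). Leaving out any single one of Late Vehicle replicates 1, 3, 4 and 5 or Late SAFit2 replicates 2, 4 and 5 also left 0 members called, while 4 stayed called without Late Vehicle replicate 2 or 6.

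Rap1a encodes a Rap1 GTPase. Its log2 CPM in Late SAFit2 mice was 6.77, 7.26, 6.98, 7.37 and 7.46, against a lowest of 5.99, a median of 6.21 and a highest of 7.18 in Late Vehicle. The groups overlapped because Late Vehicle replicates 2 (6.90) and 6 (7.18) were high, while the other 4 Vehicle mice were between 5.99 and 6.37. The log2 fold change was 0.75 with a standard error (SE) of 0.20.

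Rap1b, the closest paralog of Rap1a, did not follow it. Its log2 CPM was 3.99, 4.35, 4.40, 4.44 and 4.38 in Late SAFit2 mice, and from 4.17 over a median of 4.32 to 4.50 in Late Vehicle. All 6 Vehicle mice lay within the Late SAFit2 range or above it. The log2 fold change was 0.00 with a 95% confidence interval from -0.30 to 0.31 (limma adjusted p = 0.99), so that changes inside this interval could not be told from none. The log2 ratio of Rap1a to Rap1b per kilobase was 2.30 ± 0.43 (SD, n = 6) among Late Vehicle mice and 3.04 ± 0.19 (n = 5) with late SAFit2, and the summed level of both genes was 110 ± 35.4 CPM and 166 ± 29.6 CPM, respectively.

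Rap2c was the only Rap2 gene that passed the rule in the late comparison. Late SAFit2 mice had 5.48, 6.19, 5.65, 6.04 and 6.20 log2 CPM, and Late Vehicle mice 5.07 at the lowest, 5.11 at the median and 5.92 at the highest. As for Rap1a, Late Vehicle replicates 2 (5.92) and 6 (5.88) stood with the SAFit2 mice and the other 4 were at 5.14 or below. The log2 fold change was 0.55 (SE 0.17, limma adjusted p = 0.042), and an exact two-sided permutation test over 462 splits gave p = 0.041.

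Rap2a showed a smaller difference in the same direction. Its 5 Late SAFit2 values were 5.82, 6.17, 6.12, 6.08 and 6.29 log2 CPM, with Late Vehicle between 5.70 and 6.07 around a median of 5.84. The log2 fold change of 0.22 (SE 0.10) had an unadjusted limma p of 0.041 and an adjusted limma p of 0.13. An unadjusted limma p under 0.05 was reached by 34.5% of all genes. For Rap2b, whose reads cannot be separated from those of the overlapping genes without strand, the log2 fold change was -0.07 (95% interval -0.45 to 0.31) and the groups overlapped throughout.

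Of the exchange factors, Rapgef1 was lower. Rapgef1 couples the adaptor Crk to Rap1. Its log2 CPM was 5.97, 5.89, 5.71, 5.69 and 5.43 in Late SAFit2 mice, and from 5.69 over a median of 6.44 to 6.59 in Late Vehicle. Late Vehicle replicates 2 (5.69) and 6 (5.82) were within the SAFit2 range and the other 4 at 6.41 or above. The log2 fold change was -0.52 (SE 0.16, limma adjusted p = 0.042; exact permutation p = 0.039).

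Rapgef2 was not called, nor was Rapgef4 (Epac2), which binds cyclic AMP directly. Rapgef2 had a log2 fold change of -0.03 (95% interval -0.29 to 0.22). Rapgef4 was 7.07, 7.14, 7.20, 7.20 and 7.21 log2 CPM in Late SAFit2, a narrow spread, against 6.86 to 7.28 in Late Vehicle, for a log2 fold change of 0.16 (SE 0.11, limma adjusted p = 0.29).

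Of the GAPs, Rap1gap was lower. Late SAFit2 mice had 6.83, 6.50, 6.60, 6.22 and 6.14 log2 CPM, and Late Vehicle mice 6.43 at the lowest, 7.40 at the median and 7.69 at the highest. The lowest Vehicle mice were again replicates 6 (6.43) and 2 (6.72), and the other 4 were at 7.40 or above. Its log2 fold change of -0.73 (SE 0.21, limma adjusted p = 0.036; exact permutation p = 0.026) was the largest decrease among the 10 genes. Sipa1l1 (SPAR), a Rap GAP of dendritic spines, had a log2 fold change of -0.19 (SE 0.13, adjusted p = 0.31).

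No member had groups without overlap in the late comparison, which held for 1.71% of all genes tested. The 4 called genes moved with library composition. Late Vehicle replicates 2 and 6 differed from the rest of their group in the GC slope of the library, that is how steeply a gene's deviation from its mean over all mice rose with transcript GC content, across genes. This slope was -0.16 and -0.32 log2 units per 10 GC points in these 2 libraries, 0.26 to 0.49 in the other 4 Late Vehicle libraries and -0.05 to -0.48 in the 5 Late SAFit2 libraries. Across 16213 genes the late log2 fold change correlated with GC content at r = -0.61 (rho = -0.68), and the median GC content was 41.5% for genes called higher and 57.7% for genes called lower.

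Among the members, those called higher had 36.5% and 38.8% GC and those called lower 56.2% and 59.3%. When the smooth trend of each library on GC content and transcript length was taken out, the late log2 fold change was 0.26 for Rap1a, 0.01 for Rap2c, -0.11 for Rapgef1 and -0.16 for Rap1gap, and no member and no gene of all tested passed the rule (3 members and 2506 genes had an unadjusted limma p under 0.05). Rap2a stayed at 0.23, and Rap1b moved from 0.00 to -0.43 (limma adjusted p = 0.23). The correction also takes away any treatment effect that follows GC content, and how much of the late differences belongs to the libraries and how much to SAFit2 was not tested.

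**Figure D2:**
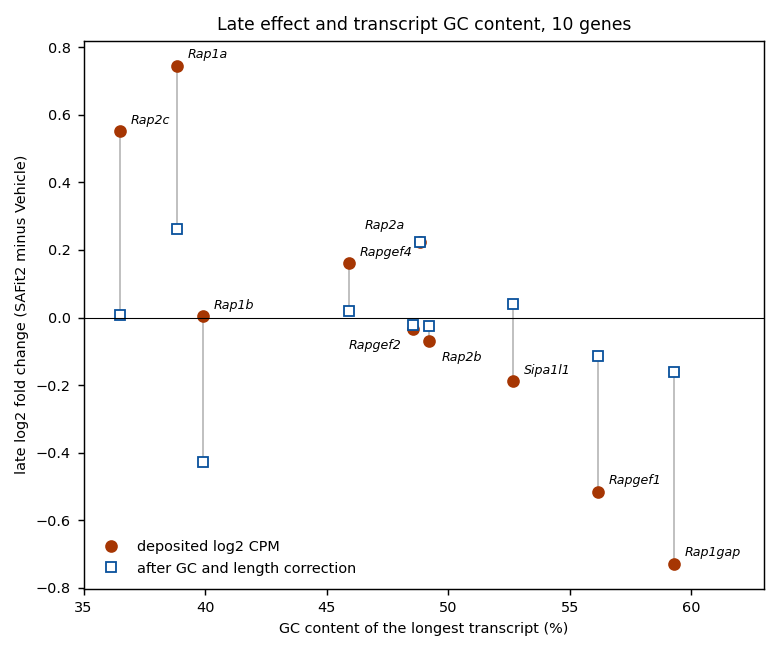
Late log2 fold change (Late SAFit2 minus Late Vehicle, vertical axis) against GC content of the longest transcript in percent (horizontal axis) for the 10 genes, before (filled circles) and after (open squares) correction for GC content and length; grey lines join the same gene. Before correction, values fall from Rap1a at 0.75 and Rap2c at 0.55 to Rap1gap at -0.73, with Rap1b at 0.00 beside genes of similar GC content.

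Plots of 6 of the genes against the GC slope show where each library lies. Rap1a and Rap2c were lower, and Rap1gap and Rapgef1 higher, in libraries of higher slope, in all 4 groups together. Rap2a had its highest values of the Late Vehicle group in replicates 2 (5.98) and 6 (6.07) as well, with the other 4 between 5.70 and 5.86. The slope was computed from the same values, so that this is a description and not an independent measure. Other library measures moved along. Reads of Bc1, a short neuronal RNA, made up 3.31% to 16.5% of gene reads in Late SAFit2, and 3.43% and 7.55% in Late Vehicle replicates 2 and 6, against 1.32% to 1.83% in the other 4. Mitochondrial genes made up 12.7% to 14.9% in Late SAFit2, 10.4% and 13.9% in these 2 Vehicle libraries, and 6.82% to 8.40% in the other 4. Their part in the late values was not tested.

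**Figure D3:**
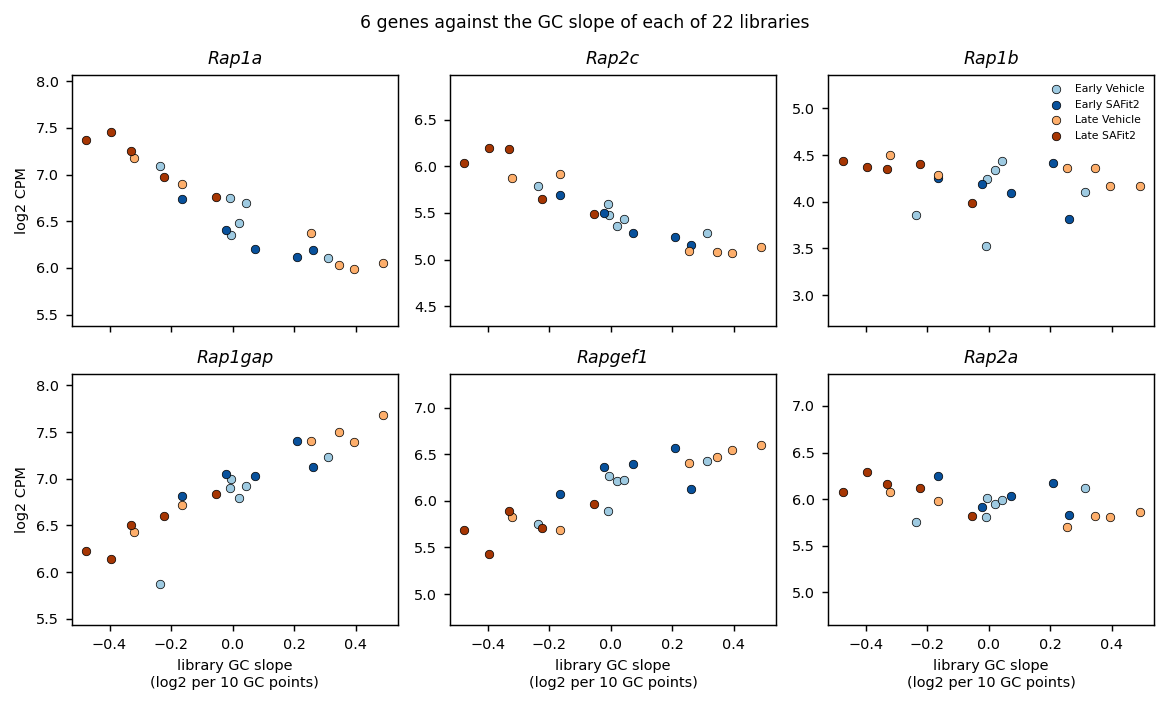
Log2 CPM of 6 genes (vertical axes, each spanning 2.7 log2 units) against the GC slope of the library in log2 units per 10 GC points (horizontal axis), with 1 point per mouse coloured by group. Late SAFit2 libraries lie at slopes of -0.48 to -0.05 and 4 of the 6 Late Vehicle libraries at 0.26 to 0.49, and replicates 2 and 6 of Late Vehicle lie among the SAFit2 libraries.

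The early comparison asked the same of mice treated around the MIA injection, and no member was called. The rule called 0% of all genes tested, and an unadjusted limma p under 0.05 was reached by 2.48% of all genes and by none of the 10. With limma voom 0 genes were called as well. The log2 fold changes ran from -0.25 (Rap1a) to 0.30 (Rap1gap). For Rap1a the 5 Early SAFit2 values were 6.74, 6.19, 6.11, 6.20 and 6.40 log2 CPM, and Early Vehicle ranged from 6.11 over a median of 6.59 to 7.09. For Rap1gap they were 6.82, 7.13, 7.40, 7.03 and 7.05, and Early Vehicle ranged from 5.87 over 6.91 to 7.24. The groups overlapped for both genes, and the interval for Rap1a was -0.66 to 0.16. Rap2c was at -0.12 (interval -0.46 to 0.23), Rapgef1 at 0.18 (-0.15 to 0.50) and Rap1b at 0.07 (-0.24 to 0.38).

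The difference between the late and the early effect was tested as a contrast of its own. Of all genes 0% passed the rule, and 0 with limma voom, so that no member did. The lowest adjusted limma p over all genes was 0.12. An unadjusted limma p under 0.05 was reached by 24.9% of all genes. Besides Rap1a, given here as a description, it was reached by Rap2c, Rapgef1, Rap1gap and Sipa1l1. The difference of log2 fold changes was 1.00 (SE 0.28) for Rap1a, 0.67 (SE 0.24; exact permutation p = 0.025) for Rap2c, -0.69 (SE 0.22; exact permutation p = 0.013) for Rapgef1, -1.03 (SE 0.30; exact permutation p = 0.0080) for Rap1gap and -0.40 (SE 0.18; exact permutation p = 0.042) for Sipa1l1. These permutation values treat 1 gene at a time and are not adjusted. In all 5 the early estimate had the opposite sign of the late one. Picking genes by a large difference favours opposite signs, so nothing is drawn from this. The difference did not pass adjustment over all genes. Without Late Vehicle replicate 6, 4 members, Rap1a among them, and 2513 genes passed. After GC and length correction the difference was 0.41 for Rap1a, 0.04 for Rap2c, -0.19 for Rapgef1 and -0.35 for Rap1gap.

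**Figure D4:**
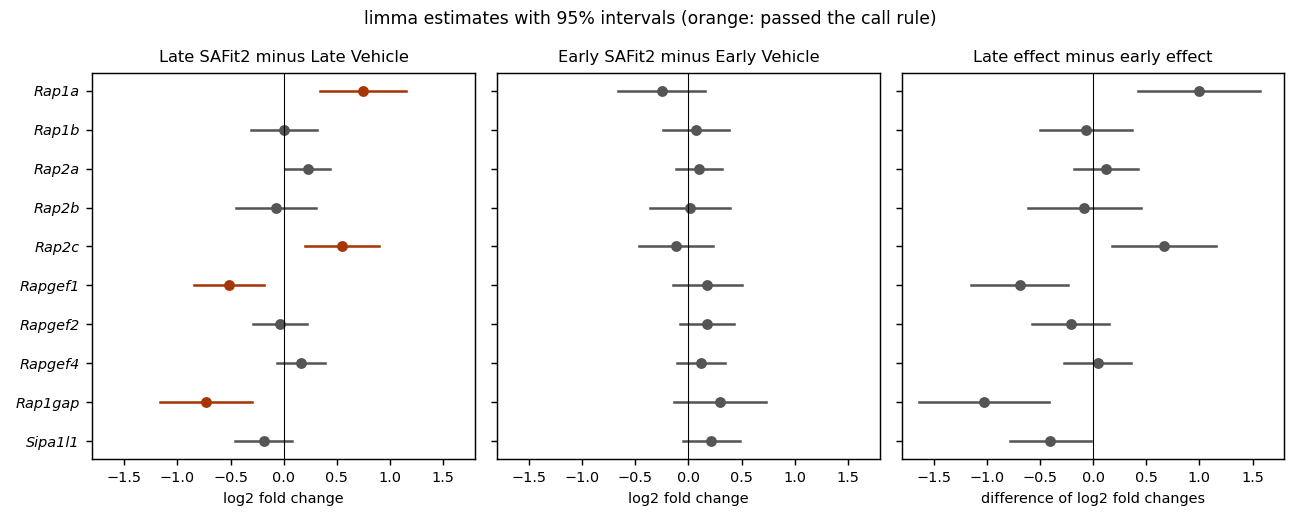
limma estimates (points) with 95% confidence intervals (lines) of the 10 genes for the late effect, the early effect and the late minus early difference, in log2 units on the horizontal axes; orange marks genes that passed the rule. Rap1a, Rap2c, Rapgef1 and Rap1gap are orange in the late panel, and no gene is in the other panels.

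Late and Early Vehicle mice differed in the timing of the gel and in batch, which cannot be told apart. None of the 10 genes was called, against 9.11% of all genes tested, and 3 had an unadjusted limma p under 0.05 (24.3% of all genes). Rap2b was higher in Late Vehicle, with 4.66 ± 0.22 against 4.19 ± 0.46 log2 CPM (SD, n = 6 each), a log2 difference of 0.47 (limma adjusted p = 0.0895; exact permutation p = 0.026). Early Vehicle replicate 4 had the lowest value (3.33), and the caution on overlapping genes applies. Rapgef4 differed by -0.27 and Rapgef2 by 0.25, with adjusted limma p of 0.11 and 0.20. Without Late Vehicle replicate 6, Rapgef4 (-0.32) and Rap1gap (0.55) passed the rule, without Early Vehicle replicate 4 Rapgef4 (-0.35) and without Early Vehicle replicate 5 Rap2b (0.58). This comparison shares the Late Vehicle mice with the late comparison and the Early Vehicle mice with the early comparison.

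Over the 4 groups, Rap1a and Rap2c were highest in Late SAFit2, with mean gaps of 0.59 and 0.42 log2 units to Early Vehicle, the next group, that exceeded the larger of both SDs. Rapgef1 was lowest in Late SAFit2, 0.39 below Early Vehicle (larger SD 0.25), and the other 3 groups did not differ beyond their spread for any of these genes. For Rap1gap, Late SAFit2 was lowest (6.46 ± 0.28), but its gap of 0.33 to Early Vehicle was below the SD of that group (0.47). Rap1b, Rap2a, Rapgef2 and Sipa1l1 had no gap between neighbouring groups beyond the spread. For Rap2b both late groups were above both early groups, with a gap of 0.38 (larger SD 0.33) between Late and Early SAFit2, and Rapgef4 was lowest in Late Vehicle, 0.16 below Late SAFit2 (larger SD 0.16).

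The promoters of the members are shown for Rap2c and Rapgef1, the genes called higher and lower that have a single RefSeq start (GRCm38.p6). Each line gives the 250 bases before the start, read in the direction of the gene, and capitals mark 4 short motifs that were searched on both strands. The GC box was searched as GGGCGG. For the cyclic AMP response element the letters were TGACGTCA. A CCAAT box was counted wherever CCAAT or its complement occurred. For the half-site of the glucocorticoid receptor, the partner of FKBP51, the letters were AGAACA.
Rap2c: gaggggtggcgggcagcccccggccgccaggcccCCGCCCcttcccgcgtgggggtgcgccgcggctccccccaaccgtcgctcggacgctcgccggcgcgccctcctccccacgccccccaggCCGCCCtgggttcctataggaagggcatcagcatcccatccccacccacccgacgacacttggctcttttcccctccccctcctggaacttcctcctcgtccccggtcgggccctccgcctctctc
Rapgef1: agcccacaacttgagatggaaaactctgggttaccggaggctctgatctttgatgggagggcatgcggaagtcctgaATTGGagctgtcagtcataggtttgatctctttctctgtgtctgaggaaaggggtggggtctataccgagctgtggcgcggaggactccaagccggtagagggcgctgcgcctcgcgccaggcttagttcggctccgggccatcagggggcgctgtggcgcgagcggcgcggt
The Rap2c sequence is at chrX:51018019-51018268 (minus strand) and the Rapgef1 sequence at chr2:29619470-29619719 (plus strand). Rap2c held 2 GC boxes and Rapgef1 none, and Rapgef1 held 1 CCAAT box. Neither held a cyclic AMP response element or a glucocorticoid receptor half-site. Of 32851 promoters of the same length, 32.7% held a GC box, 33.8% a CCAAT box, 16.1% a glucocorticoid receptor half-site and 1.55% the cyclic AMP response element. The GC content of both was above the median of all promoters (52.4%), at 75.2% for Rap2c and 60.8% for Rapgef1, and so did not follow that of the transcripts, in which Rap2c was low and Rapgef1 high. A promoter sequence was at hand for 9 of the 10 genes, all but Rap1a.

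The wider pathway was described by 5 lists of genes outside the 10. Among 9 other Rap exchange factors, 1 was lower in the late comparison and none higher. This was Rapgef3 (Epac1), with a log2 fold change of -0.70 (SE 0.21, limma adjusted p = 0.039). Among 9 other Rap GAPs, 1 was lower and none higher, namely Rasa4 (-0.91, limma adjusted p = 0.039). The median of the 9 was -0.52, and all 9 estimates were negative, as were 53.9% of those of all genes tested. The median GC content of these GAPs was 55.3%, above that of all genes, and after GC and length correction 7 of 9 estimates were negative with a median of -0.10 (51.5% and -0.01 over all genes with a GC value). Sipa1, the founding member of the Sipa1l1 family, was at -0.78 without passing the rule (limma adjusted p = 0.053).

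Of 21 Rap effectors and binding partners, 2 were lower and none higher, with a median of -0.12. They were Mink1, a kinase of the TNIK group that binds Rap2 (-0.55, limma adjusted p = 0.034), and Rundc3a, which binds Rap2 (-0.50, adjusted p = 0.037). Of 21 adaptors and cyclic AMP enzymes upstream of the exchange factors, 1 was higher and 3 lower. Crk, the adaptor that recruits Rapgef1, was higher (0.36, limma adjusted p = 0.037), and the adaptors Bcar1 (-0.85, adjusted p = 0.038) and Dok4 (-0.89, adjusted p = 0.032) and the adenylyl cyclase Adcy6 (-0.58, adjusted p = 0.036) were lower.

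Of 20 other Ras-subfamily GTPases, 3 were higher and none lower, namely Rit2 (0.46, limma adjusted p = 0.033), Nras (0.46, adjusted p = 0.042) and Rheb (0.37, adjusted p = 0.046). Over these lists 11 of 80 genes (13.8%) were called in the late comparison, near the 12.1% of all genes. No list gene was called in the early comparison or in the late minus early difference. Between the Vehicle groups 7 of 80 list genes (8.75%) were called, near the 9.11% of all genes. Rapgef6 (-0.30), Krit1 (-0.74), Rgl2 (-1.25), Adcy1 (-0.49) and Adcy6 (-0.59) were lower in Late Vehicle. Crkl (0.61) and Prkar1b (0.46) were higher, and the adjusted limma p of the 7 genes was between 0.0032 and 0.047.

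The genes whose levels followed Rap1a most closely were ranked by Pearson correlation of deviations from the group means over 22 mice, among 16764 genes. They were Septin7 (r = 0.970), Ssb (0.968), Ptp4a1 (0.967), Rab5a (0.966) and Pcnp (0.962). Rap2c ranked 104th (r = 0.91), Rap2b 3704th (0.43), Rapgef4 3976th (0.40), Rap2a 4902nd (0.29) and Rap1b 6493rd (0.12). Rapgef1 (-0.88, place 399 from the lowest) and Rap1gap (-0.91, place 182 from the lowest) were near the other end. The 22 values of a pair of genes come from the same libraries and share their depth and base composition. Correlation after the GC and length correction kept 1 of the 5 genes, Rab5a, and put Rap2c at place 3211.

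Depth ranged from 11352989 to 24433349 reads on genes per library. It was 11352989 to 20242724 in Late SAFit2, with replicates 4 and 5 the shallowest of all, and 13862129 to 23197524 in Late Vehicle. The factor that scaled the depth of a library was 0.774 to 0.946 in Late SAFit2. In Late Vehicle it was 0.902 to 1.03, lowest in replicates 6 (0.902) and 2 (0.979). The part of depth and scaling in the late values was not tested. Neuron (8 of 8), astrocyte, oligodendrocyte and microglia (6 of 6 each) markers were all in the table. In the late comparison 12.1% of all genes were called. The neuronal gene Elavl4 was higher (0.62) as 1 of 8 neuron markers, of which 5 estimates were above 0 and 3 below. Of 10 dorsal horn neuron markers Sst (-0.71) and Slc32a1 (-0.55) were lower, with 3 estimates of the list above 0 and 7 below. Of 6 endothelial markers Cldn5 (-0.53) was lower, with 2 estimates of the list above 0 and 4 below. None of the astrocyte, oligodendrocyte and microglia markers was called. Of 5 ependymal markers 3 were lower in Late SAFit2, with a summed level of 17.4 to 43.0 CPM against 30.5 to 62.5 CPM in Late Vehicle. Of 4 skeletal muscle markers tested 1 was higher, with sums of 1.61 to 183 against 1.39 to 3.28 CPM, and Schwann cell markers summed to 1.26 to 2732 against 547 to 1275 CPM, with none of 4 called. No marker found in the table was at 0 in all mice of a group. The part of cell makeup in the values of the 10 genes was not tested.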

How the data were processed

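Lumbar spinal cord RNA of 22 mice was sequenced, and mice were grouped by their treatment and timing labels. According to the methods, the authors trimmed reads, assigned them to mm10 genes with featureCounts and scaled libraries by the trimmed mean of M-values. The submitters' processing notes list Trimmomatic, HISAT2 and edgeR among the tools of the authors. The deposited values are log2 CPM, with a floor of -3.154 for genes without reads, so that a prior count was inferred. Working back from them gave whole reads in 100.0% of cases (tolerance 0.02), from 11352989 to 24433349 per library, which were used for depth and limma voom. Genes with fewer reads carry more counting error.

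The 16765 genes that reached a log2 CPM of -1 in 5 or more libraries were fitted with limma 3.58.1 in R 4.3.3, with 4 group means, a variance trend and Benjamini-Hochberg adjustment over all genes. A call needed an adjusted p under 0.05 and 1.2-fold. Exact two-sided permutation tests of single genes ran over 462 splits (924 between Vehicle groups, 213444 for the difference of effects). Separate animals are the replicates. The labels place early and late mice in separate batches, so drug effects were taken within a timing. For 96.5% of genes, the longest GENCODE M21 transcript gave GC content and length, and the correction was a loess (span 0.5). Python 3.11.15 with pandas 2.3.3 and matplotlib 3.10.9 was used for tables and plots.

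The 10 members, the 5 pathway lists, the marker lists and the tests were chosen with earlier results of these data known. Named are all members, up to 4 called genes of each list and comparison (or the gene of lowest late p), and the 5 genes most like Rap1a. Sipa1 and the marker genes Elavl4, Sst, Slc32a1 and Cldn5 in the late comparison were named after their values were seen. Alternatives were other filters, pseudocounts of 0.5 and 2, variance options, quality weights, other scalings, the compared groups alone, a replicate block, GC and length correction, voom and leaving out each mouse. The GC slope as a covariate, and genes with a GC value without correction, were added after the data were seen. Residual correlations of same-numbered mice over genes were -0.236 to 0.317, with 2 of 10 over 0.1. Numbers were not taken as pairs in the main fit, and the replicate block was run as an alternative. Protein sequences were not used here.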

Additional observations from a re-analysis of the deposited data

Results flagged for a closer look

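In 3 of 40 groups of a gene, 1 mouse stood apart from the rest by more than the 95% limit of Dixon's gap test, where chance gives about 1 in 20. Rap1b was lowest in Late SAFit2 replicate 1, at 3.99 log2 CPM, with the other 4 mice between 4.35 and 4.44. Rap1gap was lowest in Early Vehicle replicate 5, at 5.87 log2 CPM, with the other 5 between 6.80 and 7.24. Sipa1l1 was lowest in Late SAFit2 replicate 5, at 6.33 log2 CPM, with the others between 6.58 and 6.67. Early Vehicle replicate 5 had the lowest GC slope of its group (-0.24) and 18.3% mitochondrial reads, and Late SAFit2 replicate 5 had 16.5% of its reads on Bc1.

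Of the 10 genes tested, Rap1a is set aside here, as it was chosen with its late value known. Rap2c, Rapgef1, Rap1gap and Sipa1l1 had late and early effects that differed at an unadjusted p under 0.05 by a permutation test. The difference was 0.67 log2 units for Rap2c, -0.69 for Rapgef1, -1.03 for Rap1gap and -0.40 for Sipa1l1. As a description, it was 1.00 for Rap1a. None passed limma adjustment over all genes, where adjusted p was 0.18 for Sipa1l1 and 0.12 for the other genes named. For this difference 24.9% of all genes had an unadjusted limma p under 0.05. The share of all genes by the permutation test was not computed. After GC and length correction the differences of Rap1a, Rap2c, Rapgef1 and Rap1gap were smaller, as given above.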

How the results depend on the processing

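The late calls of Rap1a, Rap2c, Rapgef1 and Rap1gap kept their number and direction without a filter, with a stricter filter, with pseudocounts of 0.5 and 2, with robust estimation, with median centring and for genes with a GC value without correction. For the 10 genes in the late comparison, the number called was 0 without a variance trend, with the compared groups alone, with GC and length correction (also with a replicate block) and with the GC slope as a covariate, 2 with voom, 3 with quantile normalization and 5 with quality weights. Over all genes the late count was 62 without a trend, 6381 with quality weights, 1231 with quantile normalization, 876 with voom and 0 in the groups alone and in the fits for GC. The replicate block raised it to 3157 of all genes, with 4 members called, and changed no call of a member in any comparison when used alone. Fits for GC also take away drug effects that follow GC content, and the cause of the other changes was not tested.

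In the early comparison, 13 genes and no member were called with quality weights. For the late minus early difference, 2 genes were called without a trend, and 5082 genes and 4 members with quality weights. Between Vehicle groups, 5067 genes and 4 members were called with quality weights, 2571 genes and 1 member with GC and length correction, 2546 and 2 when the replicate block was added, and 2292 and 1 with the GC slope as a covariate. Median centring and quantile normalization each called 1 member. Of the 5 genes most like Rap1a, 3 remained among the first 5 without removal of group means and 1 after GC and length correction.

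Leaving out 1 mouse at a time, the late comparison called 1 to 4971 genes and 0 to 5 members, the difference 0 to 2513 genes and 0 to 4 members, and the Vehicle comparison 944 to 2482 genes and 0 to 2 members. The early comparison called 0 in each case.

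Estimates that changed sign were of genes not called in that comparison, except for Rap2c (-0.0094) and Rap1gap (0.0050) in the late comparison with the GC slope as a covariate, which also gave -0.11 for Rap1b, 0.039 for Rapgef2 and 0.040 for Sipa1l1. Late Rap1b was -0.43 with GC and length correction, -0.41 with the replicate block added and -0.0077 with voom. Late Sipa1l1 was 0.041 and 0.059 in these GC fits, late Rap2b 0.013 with correction and replicate block, and late Rapgef2 0.022 with median centring. Early estimates with quality weights were -0.13 for Rap1b, -0.13 for Rap2b and -0.0093 for Rapgef4, and early Rap2b was -0.039 with correction, -0.000415 with the replicate block added and -0.014 with voom. The difference was 0.18 for Rap1b and 0.085 for Rap2b with quality weights, 0.013 for Rap2b and -0.11 for Rapgef4 in both GC corrections, and -0.13 for Rapgef4 with the GC slope. Between Vehicle groups Rap1a was 0.026 and Rap2c 0.090 in both corrections, Rap1a 0.067, Rap2c 0.049 and Rapgef1 -0.025 with the GC slope, and Rap2a 0.00072 with median centring.

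Without 1 mouse at a time, late values ranged from -0.028 to 0.084 for Rap1b, -0.20 to 0.016 for Rap2b and -0.062 to 0.0020 for Rapgef2. Early values ranged from -0.042 to 0.15 for Rap1b and -0.16 to 0.12 for Rap2b. The difference ranged from -0.15 to 0.046 for Rap1b, -0.21 to 0.087 for Rap2b and -0.0089 to 0.125 for Rapgef4.

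The smallest count of a member was 133 reads, in Rap2b, and counting error was not separated from the spread between mice.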
